A study of Homo sapiens with 5 samples.

Results

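Proteasome and ubiquitin conjugation genes were examined in KMH2, an established Hodgkin lymphoma cell line of B-lineage origin, kept for 16 hours with LY294002 or with its solvent. LY294002 is an inhibitor of phosphoinositide 3-kinase that also binds other kinases and BET bromodomain proteins. The 2 groups were cells given 30 uM LY294002 (2 arrays) and cells given DMSO (3 arrays), both in RPMI1640 medium with FCS and pen/strep. All 5 arrays came from this 1 cell line. Whether replicates were grown apart is not labelled, and the p-values therefore cover array-to-array spread alone, which could be technical. Per the series design, 1 array of the planned triplicates was dropped because of its high background. In such bulk RNA, fewer cells of a kind and less RNA per cell cannot be told apart.

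The members were all genes whose symbol begins with PSMA to PSMG and a digit (proteasome subunits, their regulators and chaperones), UBE2 (E2 conjugating enzymes), UBE3, USP and a digit (deubiquitinases) or CUL and a digit (cullins). UBE2C, UBE2S and USP18 were left out by the rule. Of 7713 genes with a probe set of their own, 76 were members. They were taken by name, under a rule chosen with earlier results of these data known. They comprised 12 constitutive subunits of the 20S core, 3 immunoproteasome subunits, 13 subunits of the 19S particle, 3 regulators, 5 assembly chaperones, 13 E2 enzymes, 1 UBE3 ligase, 6 cullins and 19 USP genes. The symbol pattern also took PSMC3IP, a recombination factor with no known part in the proteasome, as the remaining member. USP9Y was counted among the USP genes and its levels are not given.

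The ubiquitin-proteasome system breaks down proteins that have been tagged with chains of ubiquitin. An E1 enzyme activates ubiquitin, an E2 carries it, and an E3 ligase, often built on a cullin scaffold, passes it to the substrate, while deubiquitinases take it off again. The complete proteasome joins a 20S core, whose beta subunits hold the protease sites, to a 19S particle that recognises, unfolds and feeds in the substrate. In cells of the immune system and after interferon, the core can take up PSMB8, PSMB9 and PSMB10 in place of PSMB5, PSMB6 and PSMB7, and this immunoproteasome is known for making peptides presented on MHC class I.

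The start regions of the immunoproteasome genes and of UBE2L6, the E2 for the ubiquitin-like protein ISG15, are shown because these genes are known interferon targets and gave both the most negative log2 difference of the members (PSMB8) and small ones (PSMB9, PSMB10). Each run covers 120 bases before and 20 after a start in RefSeq (build GRCh38.p14), 5′ to 3′ on the gene's strand. Capitals mark GAAA followed by any 2 bases and GAAA again, or the reverse complement (TTTC, any 2 bases, TTTC), the core of the interferon-stimulated response element.
PSMB8, first start, chr6:32844660-32844799, minus strand: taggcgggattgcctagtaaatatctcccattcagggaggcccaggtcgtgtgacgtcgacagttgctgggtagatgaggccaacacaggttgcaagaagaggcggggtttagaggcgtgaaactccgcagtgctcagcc
PSMB8, second start, chr6:32844028-32844167, minus strand: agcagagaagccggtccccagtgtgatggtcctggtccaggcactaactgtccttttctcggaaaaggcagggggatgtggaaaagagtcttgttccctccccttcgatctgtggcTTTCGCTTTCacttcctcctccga
PSMB9, chr6:32854072-32854211, plus strand: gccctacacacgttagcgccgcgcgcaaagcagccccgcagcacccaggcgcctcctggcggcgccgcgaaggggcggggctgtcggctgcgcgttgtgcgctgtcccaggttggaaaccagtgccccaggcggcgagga
PSMB10, chr16:67936831-67936970, minus strand: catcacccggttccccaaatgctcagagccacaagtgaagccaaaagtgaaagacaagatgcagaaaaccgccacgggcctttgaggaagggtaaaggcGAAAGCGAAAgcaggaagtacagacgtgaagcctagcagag
UBE2L6, first start, chr11:57567916-57568055, minus strand: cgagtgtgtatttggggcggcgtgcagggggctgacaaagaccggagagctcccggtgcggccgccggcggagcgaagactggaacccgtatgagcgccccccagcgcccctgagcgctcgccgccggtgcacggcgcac
UBE2L6, second start, chr11:57567653-57567792, minus strand: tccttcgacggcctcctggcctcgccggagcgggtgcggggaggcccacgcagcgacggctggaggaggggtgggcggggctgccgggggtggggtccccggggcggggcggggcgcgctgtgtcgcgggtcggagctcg
The letters were found at the second start of PSMB8, from 4 bases before the start to the fifth base after it, and in PSMB10, from 21 to 12 bases before the start. They were not found in the other 4 runs. On RefSeq windows of 250 bases before to 50 after a start, searched on both strands, they occurred in 3.57% of all 35116 windows. Among members they occurred in 5 of 66 genes with a window (PSMA4, PSMB4, PSMB8, PSMB10 and PSME1), against 4.59% of the 6209 measured genes with one. A match is a description of the letters only.

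LY294002 was compared with DMSO to see which genes respond to the inhibitor. Of the 76 members, 0 passed limma's test at an adjusted p of 0.05 over the whole table, in a comparison where 0.908% of all genes passed (0.609% higher and 0.298% lower). The members nearest the threshold were UBE2A, an E2 that acts with RAD18 on the replication clamp PCNA, with a log2 difference (LY294002 minus DMSO) of 0.59 ± 0.07 (SE; adjusted p = 0.0539), PSMB8 at -0.59 ± 0.08 (adjusted p = 0.058) and UBE2L6 at -0.43 ± 0.06 (adjusted p = 0.063). Subunits of the 20S core stayed close to their DMSO levels, with a median log2 difference of -0.01. E2, cullin and USP genes had medians of 0.13, 0.18 and 0.14, against -0.01 over all genes. Over the 1929 genes with the brightest probe sets the median was 0.04. On the E2, cullin and USP classes LY294002 replicate 1 stood further from DMSO than LY294002 replicate 2. UBE2A, PSMB8, UBE2L6 and USP9X passed under several other settings: UBE2A under 6, PSMB8 and UBE2L6 under 5 and USP9X under 4 of 15. The 15 include dropping probe sets with repeated values, an alternative added after seeing the data. In the settings where any of these members passed, 1.31% to 10.7% of all genes tested passed.

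At an unadjusted p under 0.05 there were 17 members (13 above and 4 below DMSO), or 22.4% of them, against 17.1% of all genes (10.6% above and 6.5% below). Most members have bright probe sets, with 66 of 76 above the median DMSO signal of all genes. Of the 1929 genes with the brightest probe sets, 33.1% had an unadjusted p under 0.05 (407 above and 232 below DMSO). The groups did not overlap for 25 members, or 32.9%, against 29.6% of all genes and 48.7% of the bright ones. In 19 members (25%) LY294002 was the higher group, against 16.2% of all genes and 584 of the 1929 bright ones. In 6 (7.89%) it was the lower, against 13.4% of all genes and 355 of the bright ones. Without regard to direction, the shares lie near the background and below those of the bright genes. By direction, the higher share lies above that of all genes and below that of the bright ones. The lower share lies below both. Over all members the median log2 difference was 0.08, against -0.01 over all genes and 0.04 over the bright ones. Of the members 49 of 76 were above 0, where 44.5% of all genes and 1109 of the 1929 bright genes were. The 95% interval of the difference lay within 1 log2 unit of 0 for 76 of 76 members and for 7562 of the 7713 genes. It lay within 0.5 for 53 members, against 6569 of all genes and 1342 of the 1929 bright ones.

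**Figure D1:**
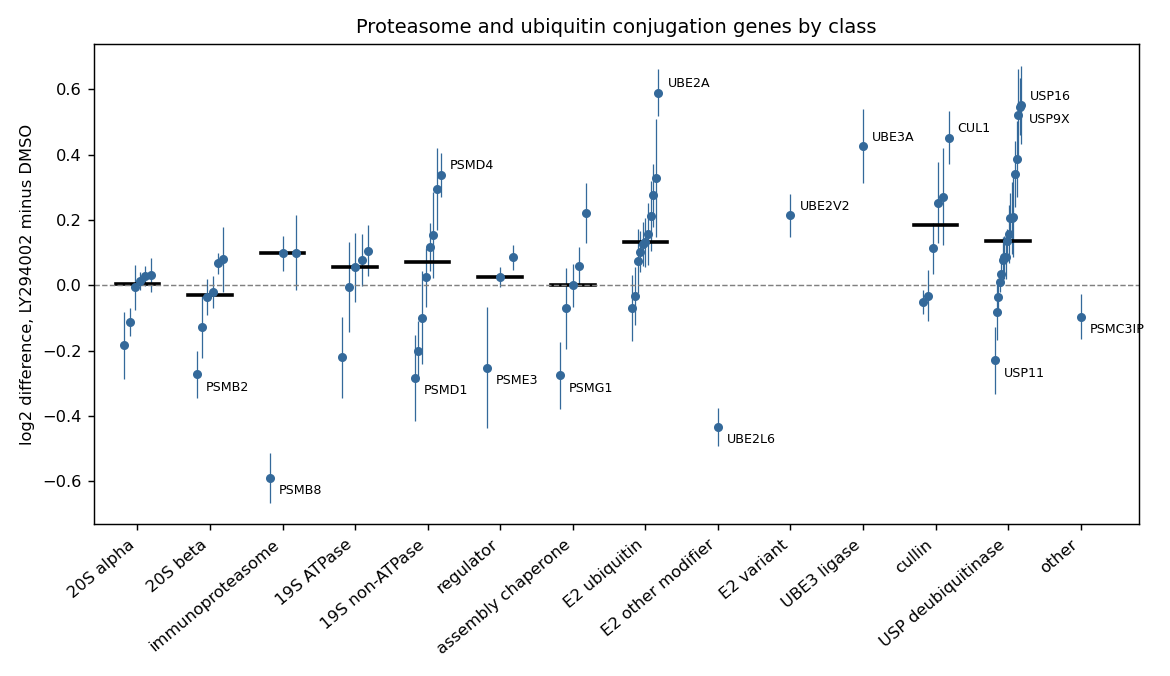
Log2 difference, LY294002 minus DMSO (vertical axis), of 75 members by class, with USP9Y not drawn. Points are genes, thin bars the standard error of the limma fit and black lines the class median, drawn for classes of at least 3 genes. UBE2A at 0.59 and PSMB8 at -0.59 are the outermost points, while the alpha subunits lie between -0.18 and 0.03.

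**Figure D2:**
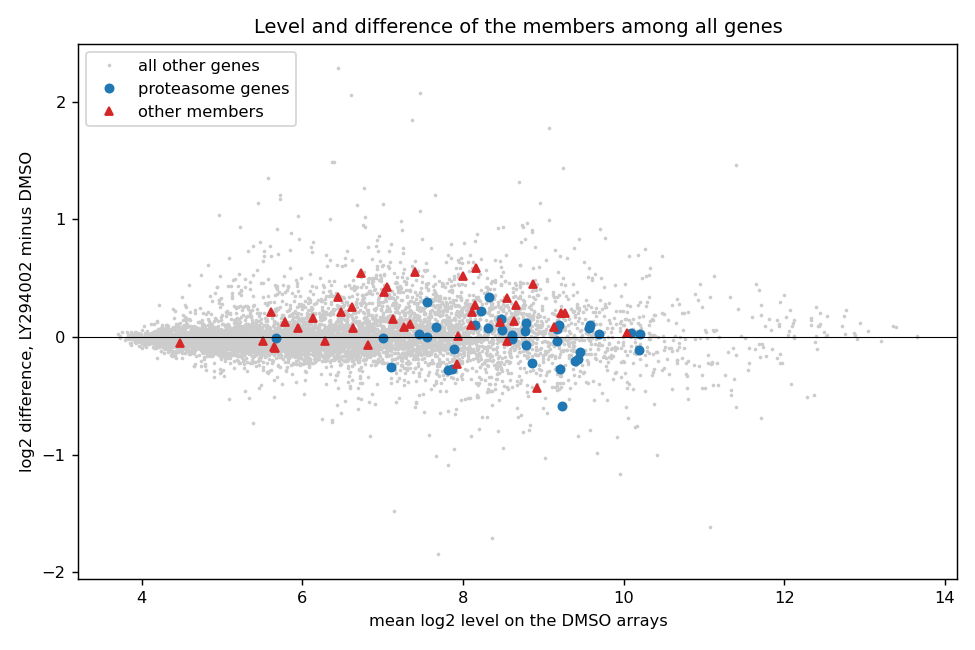
Mean log2 signal on the 3 DMSO arrays (horizontal axis) against the log2 difference, LY294002 minus DMSO (vertical axis), of 7700 genes. The 75 members drawn lie between -0.59 and 0.59, inside the range of all genes, which runs from -1.85 to 2.28.

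The 20S core is built of alpha subunits, which form the outer rings and the gate, and beta subunits, which form the inner rings. Of its 12 measured constitutive subunits, 5 log2 differences were above 0 and 7 below. Each 95% interval lay within 0.5 of 0, as it did for 6569 of all 7713 genes and 1342 of the 1929 brightest. Among alpha subunits the differences were lowest for PSMA3, at -0.18 ± 0.10 (adjusted p = 0.438), and PSMA2, at -0.11 ± 0.04 (0.303). They were highest for PSMA1, at 0.03 ± 0.05 (0.738), and PSMA4, at 0.03 ± 0.03 (0.636). PSMA2 read 10.06 and 10.10 on the log2 scale with LY294002, against 10.16, 10.25 and 10.16 with DMSO, so that the groups did not overlap although they lay close together. PSMA5 and PSMA7 made up the other measured alpha subunits, with differences of 0.01 and -0.01. PSMA7 was read on a dim probe set (5.67 with LY294002 and with DMSO, against a median DMSO level of 6.28 over all genes). Both genes repeated a value exactly within a group.

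Among the constitutive beta subunits PSMB2 had the most negative difference, at -0.27 ± 0.07 (adjusted p = 0.172). It read 8.95 and 8.90 with LY294002, against 9.15, 9.32 and 9.13 with DMSO, with no overlap. PSMB3 stood at -0.13 ± 0.10 (0.497), PSMB4 at 0.07 ± 0.03 (0.39) and PSMB1 at 0.08 ± 0.10 (0.665). PSMB5, which holds the chymotrypsin-like site, stood at -0.02 ± 0.05 (0.821; 95% interval -0.15 to 0.11), and PSMB7, which holds the trypsin-like site, at -0.04 ± 0.05 (0.719; -0.18 to 0.11). PSMB6, the remaining catalytic subunit, was not analysed here.

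The immunoproteasome subunits did not share a direction. PSMB8, the inducible counterpart of PSMB5, read 8.65 on both LY294002 arrays, against 9.11, 9.35 and 9.26 on the DMSO arrays. Each LY294002 value was below each DMSO value by more than the spread of either group, with a log2 difference of -0.59 ± 0.08 (95% interval -0.79 to -0.39), that is 0.665 times the DMSO level. PSMB9, the counterpart of PSMB6, read 9.67 on both LY294002 arrays, against 9.59, 9.65 and 9.49 with DMSO. Its groups did not overlap either, but in the other direction and by little, at 0.10 ± 0.05 (adjusted p = 0.438). PSMB10, the counterpart of PSMB7, read 8.24 on both LY294002 arrays, inside the DMSO range of 7.95, 8.17 and 8.31, with a difference of 0.10 ± 0.11 (0.642). The interval of PSMB8 did not meet those of PSMB9 (-0.05 to 0.24) and PSMB10 (-0.20 to 0.40), though the difference between subunits was not itself tested. TAP2, a peptide transporter gene of MHC class I presentation, stood at 0.09 ± 0.04 (0.311).

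**Figure D3:**
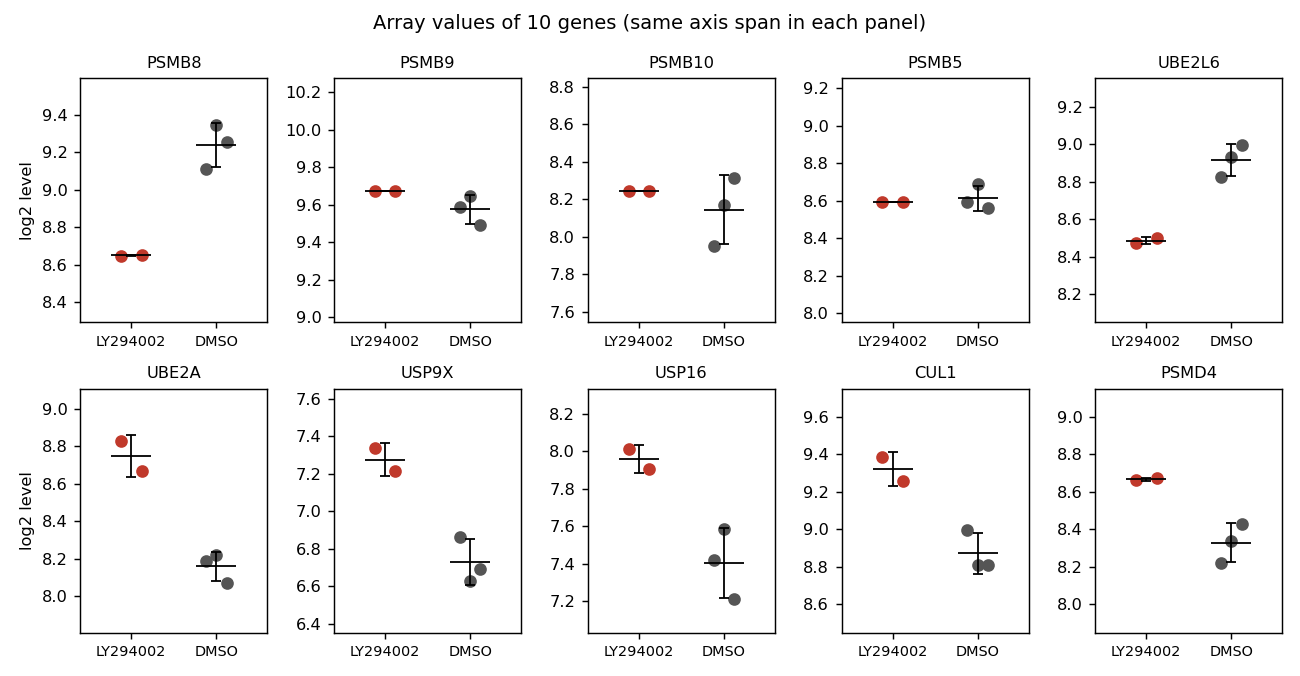
Log2 level (vertical axis) of 10 members on each array, with LY294002 (red, 2 arrays) left of DMSO (grey, 3 arrays). The black marks are group means and SDs, and each panel spans the same number of log2 units around its own centre. PSMB8 and UBE2L6 lie below DMSO on both LY294002 arrays, UBE2A, USP9X, USP16, CUL1 and PSMD4 lie above it, PSMB9 lies just above it, and PSMB5 and PSMB10 overlap with it.

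The 19S particle holds a ring of ATPases and a set of non-ATPase subunits. Its 13 measured genes had a median log2 difference of 0.05, with 8 above 0 and 5 below. The sign of that median was not stable: it was -0.03 without DMSO replicate 1 and -0.02 after quantile normalization, against 0.11 without DMSO replicate 2. Of the ATPases, which unfold the substrate, PSMC3 had the lowest difference at -0.22 ± 0.12 (adjusted p = 0.438), followed by PSMC6 at -0.0049 ± 0.14 (0.991). PSMC4 stood at 0.08 ± 0.08 (0.602), PSMC1 at 0.11 ± 0.08 (0.488) and PSMC2 at 0.05 ± 0.10 (0.782).

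Of the non-ATPase subunits, PSMD4, a receptor for ubiquitin chains, had the highest difference. It read 8.66 and 8.67 with LY294002, against 8.22, 8.34 and 8.43 with DMSO, a difference of 0.34 ± 0.07 (adjusted p = 0.112; 95% interval 0.16 to 0.52). PSMD3, a subunit of the lid, stood at 0.30 ± 0.12 (0.349), but its LY294002 values of 8.01 and 7.69 included 1 at the highest DMSO value, 7.69. At the other end PSMD1, the scaffold subunit that docks ubiquitin receptors, read 7.55 and 7.52 with LY294002, against 7.61, 8.03 and 7.81 with DMSO. Its groups did not overlap, and its difference was -0.28 ± 0.13 (0.385; -0.63 to 0.07). PSMD11, a subunit of the lid, stood at -0.20 ± 0.09 (0.382). The other 4, PSMD2, PSMD8, PSMD12 and PSMD14, ran from -0.10 to 0.15.

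Among the regulators that bind the core, PSME1, a subunit of the interferon-induced cap PA28, stood at 0.03 ± 0.03 (adjusted p = 0.646), with the same value of 10.20 on 4 of 5 arrays. PSME3, which forms a cap of its own in the nucleus, stood at -0.25 ± 0.19 (0.491), and its LY294002 values of 7.06 and 6.64 differed by more than the groups did. PSMF1, an inhibitor of the core known as PI31, stood at 0.09 ± 0.04 (0.373). The probe set of PSME2 carries a second gene symbol and was not used for a gene.

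Assembly chaperones help the core and the 19S base come together and are not part of the finished particle. PSMG1, which starts the alpha ring, read 7.68 and 7.48 with LY294002, against 7.77, 8.002 and 7.80 with DMSO, a difference of -0.28 ± 0.10 (adjusted p = 0.29). Its partner PSMG2 stood at -0.07 ± 0.12 (0.764). Of the chaperones of the 19S base, PSMD9 stood at 0.22 ± 0.09 (0.337), PSMD10, also known as gankyrin, at 0.06 ± 0.06 (0.577) and PSMD5 at -0.0004 ± 0.07.

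The DMSO arrays differed among themselves in proteasome genes. Taken as the median over the 13 genes of each gene's distance from its own DMSO mean, the 19S particle stood at 0.09 and 0.02 on LY294002 replicates 1 and 2, against -0.12, 0.12 and 0.01 on DMSO replicates 1, 2 and 3. DMSO replicate 1 was the lowest DMSO array in 11 of these 13 genes, and in 17 of the 25 genes of the 20S core and the 19S particle together, where it was the lowest in 2596 of 7713 genes. The 20S core stood at -0.01 on both LY294002 arrays, against -0.04, 0.05 and 0.01 on the DMSO arrays. Both LY294002 arrays therefore lay within the DMSO range for both particles.

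**Figure D4:**
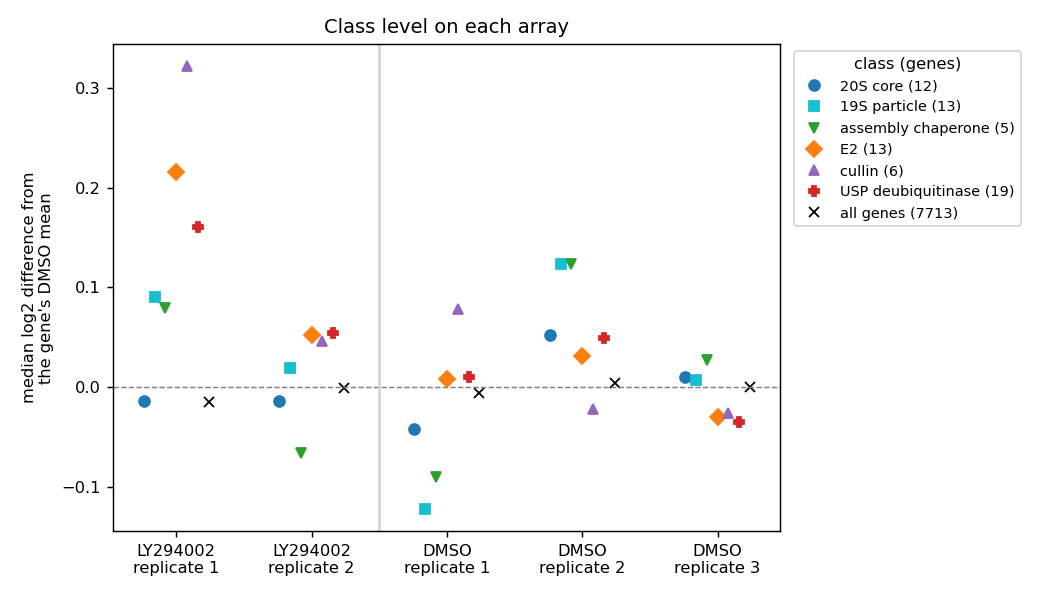
Median over each class of the log2 difference from the gene's own DMSO mean (vertical axis), on the 2 LY294002 arrays at the left and the 3 DMSO arrays at the right, with the number of genes in brackets. On LY294002 replicate 1 the cullins stand at 0.32, E2 genes at 0.22 and USP genes at 0.16, while the 20S core stays at -0.01 on both LY294002 arrays.

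E2 enzymes carry activated ubiquitin or a related modifier. Of 13 measured E2 genes, 10 log2 differences were above 0 and 3 below, and 4 (30.8%) had an unadjusted p under 0.05, a share above the 17.1% of all genes and below the 33.1% of the bright ones. UBE2A read 8.83 and 8.67 with LY294002, against 8.19, 8.22 and 8.07 with DMSO. Both LY294002 values lay well above the DMSO range, at 1.5 times the DMSO level (95% interval of the log2 difference 0.40 to 0.78). UBE2B, its close relative, stood at 0.13 ± 0.08 (adjusted p = 0.44).

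UBE2L6 read 8.47 and 8.50 with LY294002, against 8.83, 8.93 and 8.997 with DMSO. Its groups did not overlap, and its level with LY294002 was 0.74 times that with DMSO (95% interval of the log2 difference -0.59 to -0.28). UBE2L6 and PSMB8 had the 2 most negative differences of the members. Of the other members known to be induced by interferon, PSMB9, PSMB10 and PSME1 lay above 0, at 0.10, 0.10 and 0.03. USP18, the protease that removes ISG15, which the rule leaves out, stood at 0.14 ± 0.06 (adjusted p = 0.384).

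UBE2Q1 had the second highest E2 difference, 0.33 ± 0.18 (adjusted p = 0.437), which rested on 1 array: it read 9.16 and 8.59 with LY294002, against 8.56, 8.59 and 8.49 with DMSO. Without LY294002 replicate 1 the difference was 0.04. UBE2G2, an E2 of the endoplasmic reticulum, stood at 0.28 ± 0.10 (0.268), with 9.09 and 8.79 against 8.65, 8.69 and 8.64. UBE2V2, a variant without the catalytic cysteine that works with UBE2N, stood at 0.21 ± 0.07 (0.222), and UBE2N itself at 0.13 ± 0.07 (0.431). At the low end UBE2H stood at -0.07 ± 0.10 (0.712) and UBE2D4 at -0.03 ± 0.09 (0.853). The single UBE3 gene, the ligase UBE3A, read 7.62 and 7.33 with LY294002, against 7.09, 7.13 and 6.93 with DMSO, a difference of 0.43 ± 0.11 (0.175). Its dimmer probe set gave 0.30 ± 0.11.

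Cullins are the scaffolds of the largest family of ubiquitin ligases. CUL1, the scaffold of the SCF ligases, read 9.39 and 9.26 with LY294002, against 8.998, 8.81 and 8.81 with DMSO. It was the cullin whose groups did not overlap, at 0.45 ± 0.08 (adjusted p = 0.0962; 95% interval 0.24 to 0.67). CUL3, which works with BTB adaptors, stood at 0.27 ± 0.15 (0.437) and CUL5, which works with SOCS-box adaptors, at 0.25 ± 0.12 (0.398). Both were carried by 1 array: CUL3 read 8.60 and 8.23 with LY294002, against 8.23, 8.24 and 7.97 with DMSO, and CUL5 read 7.06 and 6.69, against 6.56, 6.62 and 6.69. CUL4B stood at 0.11 ± 0.08 (0.47) and CUL4A at -0.03 ± 0.08 (0.835), the 2 scaffolds that bind DDB1. CUL2, the scaffold of the VHL ligase, stood at -0.05 ± 0.04 (0.49) on a dim probe set (4.43 with LY294002, 4.48 with DMSO). LY294002 replicate 1 was above LY294002 replicate 2 in 3397 of all 7713 genes and in 1378 of the 1929 brightest. The brightest genes had a median DMSO level of 8.52, against 6.98 for cullins. In cullins LY294002 replicate 1 was the higher in 6 of 6, in E2 genes in 10 of 13 and in USP genes in 12 of 19. The upper quartile of that array was 7.69, against 7.60 to 7.62 on the others, and its part in these differences was not tested beyond leaving it out, where the medians were 0.05 for cullins, E2 and USP genes alike.

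USP enzymes are cysteine proteases that remove ubiquitin. Of 19 USP genes, 15 log2 differences were above 0 and 4 below. The groups did not overlap in 8 (42.1%), each with LY294002 higher, against 29.6% of all genes and 48.7% of the bright ones. A value was repeated exactly within a group in 8 of the 19 genes and in 2942 of all 7713. USP13, USP22 and USP25, whose groups did not overlap, were among those with a repeat. An unadjusted p under 0.05 was found for 7 (36.8%), each with LY294002 higher, against 17.1% of all genes and 33.1% of the bright ones. The bright genes are not matched to the USP genes in level, with a median DMSO level of 8.52 against 7.27. USP9X, a large enzyme known to stabilise MCL1, read 7.34 and 7.21 with LY294002, against 6.87, 6.63 and 6.69 with DMSO, a difference of 0.55 ± 0.09 (adjusted p = 0.0777; 95% interval 0.31 to 0.78). USP16, which removes ubiquitin from histone H2A, read 8.01 and 7.91, against 7.42, 7.58 and 7.21 with DMSO, a difference of 0.55 ± 0.12 (0.129; 0.23 to 0.87). In both genes the groups were separate.

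USP3, also an H2A deubiquitinase, read 8.74 and 8.30 with LY294002, against 8.01, 8.05 and 7.94 with DMSO, a difference of 0.52 ± 0.14 (adjusted p = 0.178). USP20 stood at 0.39 ± 0.12 (0.216), USP25 at 0.34 ± 0.10 (0.207), USP13 at 0.21 ± 0.08 (0.292) and USP21 at 0.14 ± 0.04 (0.178). USP22, the deubiquitinase of the SAGA coactivator, stood at 0.21 ± 0.11 (0.427). Close to 0 were USP14, the deubiquitinase that docks on the proteasome, at 0.03 ± 0.04 (0.615; 95% interval -0.06 to 0.13), and USP39, a splicing factor without protease activity, at 0.01 ± 0.03 (0.867). USP7, which acts on MDM2 and p53, stood at 0.16 ± 0.09 (0.438). USP11 had the lowest difference of the class, -0.23 ± 0.10 (0.373), with 7.56 and 7.85 against 7.96, 7.98 and 7.85, so that its second LY294002 array met the DMSO range. USP29 stood at -0.08 ± 0.09 (0.607).

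A list of 80 further symbols of the pathway (ubiquitin, E1 enzymes, partners of cullins, other ligases and deubiquitinases, shuttles) had 50 measured genes. Of these 0 passed at an adjusted p of 0.05, 10 (20%, against 17.1% of all genes) had an unadjusted p under 0.05, with 8 above DMSO and 2 below, and the median log2 difference was 0.06. SIAH2, a RING ligase, read 9.31 and 9.27 with LY294002, against 8.98, 8.96 and 8.86 with DMSO, a difference of 0.35 ± 0.05 (adjusted p = 0.059). RBX1, the RING subunit of cullin ligases, read 9.01 and 9.02, against 8.77, 8.62 and 8.66 with DMSO, a difference of 0.33 ± 0.05 (0.0767). Partners of cullins differed in sign.

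SKP2, the F-box protein that targets the cell cycle inhibitor p27 through CUL1, stood at -0.55 ± 0.11 (adjusted p = 0.112) and DDB2, the damage sensor of CUL4 ligases, at -0.78 ± 0.13 (0.079). SKP1, the adaptor between CUL1 and F-box proteins, stood at 0.28 ± 0.11 (0.311), and NEDD8, the modifier that activates cullins, at 0.02 ± 0.06 (0.896). VCP, the segregase that pulls ubiquitinated proteins out of complexes, stood at 0.43 ± 0.12 (0.201), STUB1, a chaperone-bound ligase, at 0.38 ± 0.06 (0.0827) and the ubiquitin gene UBB at 0.16 ± 0.04 (0.178). NFE2L1, the factor known to raise proteasome genes when proteasome activity is short, stood at 0.21 ± 0.13 (0.448), and its relative NFE2L2 at 0.31 ± 0.19 (0.449). The letters TGACNNNGC, part of the element these factors bind, or its reverse complement, were found in the RefSeq window of 4 of 12 genes of the 19S particle and 2 of 9 of the 20S core, against 19.6% of the 6209 measured genes with a window.

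Of the E2 genes that the rule leaves out, UBE2S, which extends chains for the anaphase-promoting complex, read 10.82 and 10.43 with LY294002, against 9.65, 9.71 and 9.77 with DMSO, a difference of 0.92 ± 0.13 (adjusted p = 0.0649). UBE2C, its mitotic partner, stood at 0.08 ± 0.03 (0.297). In DMSO cells the 9 measured marker genes of Hodgkin and Reed-Sternberg cells all lay above the median DMSO signal of all genes, as did 4 of 4 T cell genes, and the 1 erythroid gene, while 1 of 4 epithelial, 1 of 3 stromal and 0 of 3 myeloid marker genes did. The deposited table gives no detection call, so a gene above that median is not thereby shown to be expressed.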

How the data were processed

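Affymetrix arrays were hybridised with biotinylated cRNA, as the labels' protocols state. The deposited table holds log2 values per probe set, and the submitters' processing notes name affy as the tool. Its version and how the authors corrected background and summarised probes: not given in the sources used here. Values were used as deposited. After removal of 47 control probe sets, 8746 were fitted with limma 3.58.1 in R 4.3.3 (lmFit and eBayes, group as the only term, 3 residual degrees of freedom, two-sided, Benjamini-Hochberg over all 8746). The number of arrays limits the precision.

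Genes were named from the platform annotation (7840 probe sets with 1 symbol, 388 with several, 518 with none), and a gene was represented by its brightest probe set. All 76 members were found in the RefSeq gene table (GRCh38.p14), and 66 had a promoter window there. Of the members' probe sets, 39 (37 marked s and 2 marked x) can bind several transcripts. The 2 marked x are those of USP16 and USP21. A value was repeated exactly within a group in 18 of the 76 members and in 2942 of all 7713 genes. The members, lists and naming rule were chosen with earlier results of these data known. Named were, in each class of at least 3, the 2 highest and 2 lowest differences, all immunoproteasome subunits and cullins, their counterparts and PSME genes, and the 2 other pathway genes nearest the threshold. Other genes were chosen after their values were seen. On simulated data, run on 8746 probe sets, limma recovered 48.2% of true log2 changes of size 0.3, 86.1% at 0.5 and 99% at 1. Whether these shares hold for the deposited arrays, where 38% of probe sets repeat a value within a group, was not tested. In the fit of the deposited arrays 0 of 76 members passed, UBE2A at 0.59 and USP16 at 0.55 among them. The shares therefore do not show that members short of the threshold were unchanged. Errors are standard errors of the fit and intervals are 95% and unadjusted. Plots used matplotlib 3.10.9 (Python 3.11.15). The alternatives were 3 normalizations, a filter on dim probe sets, 3 models of the spread, the replicate number as a block, averaged probe sets and each array left out.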

Additional observations from a re-analysis of the deposited data

How the results depend on the processing

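Quantile normalization gave 5 members (6.58%) past the threshold in place of 0, median centring 3 (3.95%) and cyclic loess 4 (5.26%). A filter on dim probe sets gave 4 of the 68 members kept (5.88%), and the trended, robust prior 1 (1.32%). Dropping probe sets with repeated values inside a group, an alternative added after seeing the data, gave 9 of the 58 members kept (15.5%). Array weights, no variance moderation, averaged probe sets, the replicate block and each array left out gave 0. The matching counts over all genes, 70 (0.908%) as reported, were 299 (3.88%), 147 (1.91%), 264 (3.42%), 203 of 4642 (4.37%) and 101 (1.31%) in the first 5 settings. They were 510 of 4771 (10.7%) without repeated values, 87 (1.13%) with averaged probe sets and 17 (0.22%) with array weights. Without moderation the count was 1, and with the replicate block 0. With a DMSO array left out it was 4 without replicate 1 and 0 without replicate 2 or replicate 3. The labels do not say what the replicate numbers stand for, and deviations of same-numbered arrays correlated at 0.0021 and -0.21. UBE2A, PSMB8, UBE2L6 and USP9X were the members that passed most often, with adjusted p from 0.0061 to 0.358, 0.0069 to 0.363, 0.0122 to 0.348 and 0.0111 to 0.348 over the alternatives. Among genes that are no members, UBE2S passed in 6 settings, DDB2 in 4, SKP2 in 2 and STUB1 in 1. SIAH2 and RBX1 also passed, with their lowest adjusted p, 0.018 and 0.0252, found without repeated values. PSMB2 passed after quantile normalization, and CUL1, PSMD4, UBE3A, USP16 and USP3 without repeated values.

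The median of the 19S particle, 0.05, was -0.017 after quantile normalization and ran from -0.034 to 0.11 with an array left out. That of the 20S core, -0.014, was -0.075 after quantile normalization and -0.074 without repeated values. Quantile normalization gave 0.069 for USP genes and 0.020 for all members, against 0.14 and 0.08 as reported. With an array left out the median ran from 0.052 to 0.22 for E2 genes, from 0.046 to 0.32 for cullins, from 0.054 to 0.16 for USP genes, from 0.022 to 0.093 for all members and from -0.015 to -0.0008 for all genes. That of all genes was -0.0011 after cyclic loess and 0.0048 without dim probe sets.

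Of the genes given values here, those whose difference turned sign did not pass as reported or where it turned. The sign turned for NEDD8 (-0.056), PSMA1 (-0.015), PSMA5 (-0.052), PSMA7 (0.0069), PSMC2 (-0.017), PSMD10 (-0.011), PSMD8 (-0.032), PSME1 (-0.0051), USP14 (-0.014) and USP39 (-0.042) after quantile normalization. It turned for NEDD8 (-0.020), PSMA4 (-0.0033), PSMA5 (-0.022), PSMA7 (0.018), PSME1 (-0.0037) and USP39 (-0.023) after cyclic loess, for NEDD8 (-0.0006) and PSMA7 (0.0007) with array weights and for PSMA7 (0.048), PSMC6 (0.077) and UBE2D4 (0.024) with the replicate block. With an array left out the sign turned for CUL4A (-0.098 to 0.034), NEDD8 (-0.032 to 0.057), PSMA5 (-0.0009 to 0.030), PSMA7 (-0.057 to 0.048), PSMB1 (-0.0049 to 0.15), PSMB5 (-0.048 to 0.017), PSMC2 (-0.034 to 0.12), PSMC6 (-0.11 to 0.095), PSMD12 (-0.25 to 0.051), PSMD5 (-0.080 to 0.079), PSMD8 (-0.051 to 0.089), PSMG2 (-0.18 to 0.014), UBE2D4 (-0.13 to 0.062), UBE2H (-0.13 to 0.022), USP14 (-0.0003 to 0.070) and USP39 (-0.0042 to 0.022). The cause was not tested.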
